A study of Sus scrofa domesticus with 4 samples.

Results

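The genes described here encode subunits of the mitochondrial respiratory chain and of ATP synthase, with the electron carrier cytochrome c. Members were all array probes whose RefSeq accession belonged to a pig gene with a symbol starting NDUF, UQCR, COX4 to COX8 or ATP5, or named SDHA to SDHD, CYCS or CYC1. This gave 28 genes with 111 probes on the array, of 3029 genes named there. Of these, 27 genes with 108 probes were measured, meaning well above background in at least 4 of 8 readings (4 arrays, 2 dyes), against 2407 measured genes in all. The gene not measured was COX8H, the heart isoform of a cytochrome c oxidase subunit, both of whose probes were well above background in 0 of 8 readings. SDHA, SDHC, CYC1 and the mitochondrially encoded subunits were not analysed here.

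The respiratory chain passes electrons from NADH (through complex I) and from succinate (through complex II) to ubiquinone, then through complex III and cytochrome c to complex IV, which reduces oxygen. Complexes I, III and IV pump protons across the inner mitochondrial membrane as they do so, and ATP synthase lets the protons flow back to make ATP. Most subunits are encoded in the nucleus and imported, and in the pregnant uterus the chain supplies the energy of a secretory, growing tissue.

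The study asked how orexin A (OXA), a neuropeptide known for its part in appetite and arousal, alters endometrial gene expression around implantation. The tissue came from 4 gilts, Large White x Polish Landrace, aged 7 to 8 months and on days 15 to 16 of gestation. Both groups were slices of endometrium preincubated for 2 h in culture medium. Treated slices then had 24 h with OXA at 10 nM (10 µM in the series' design text), and untreated control slices had 24 h with no OXA. Each of 4 two-colour arrays set 1 OXA-treated RNA against 1 control RNA. The labels do not say whether 1 gilt gave both, so p-values measure a spread between arrays. The dye labels of each sample put OXA in Cy5 for arrays 1 and 3 and in Cy3 for arrays 2 and 4, whereas the labelling protocol names Cy5 for every one. The authors' deposited value table runs the way of the sample labels, opposite to the scanner's Cy5 over Cy3 ratio on arrays 2 and 4, and the sample labels are followed here. Values with OXA in Cy5 on every array, which turns the sign of arrays 2 and 4, are given beside some of the results. They are given for each member whose mean changed sign. In that direction OXA and Cy5 fall together on every array, so OXA and dye cannot be told apart. All values that follow are log2 of OXA over control, read from the brightest measured probe of each gene, with n = 4 arrays. The main fit has a dye term, so its p-values and standard errors (SE) rest on the spread between arrays of the same dye orientation. A difference between the orientations does not enter them, whereas each standard deviation (SD) is over all 4 arrays.

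Array 1 lay on a slide of its own, scanned 71 days later than the slide of arrays 2 to 4, with 31.7% of probes well above background in Cy3 against 52.1% to 56.7% on arrays 2 to 4. The standard deviation of all probes' ratios was 0.46 on array 1, 0.32 on array 2, 0.18 on array 3 and 0.17 on array 4. Of 12 endometrial genes listed for this check 7 were measured, among them uteroferrin (ACP5), RBP4, osteopontin (SPP1) and the progesterone receptor (PGR), each well above background in 8 of 8 readings. The slices are mixed tissue, and fewer cells of a type cannot be told apart from less RNA per cell. The marker lists moved between arrays. Array 1 had a median of 1.44 over the 3 measured stromal fibroblast genes of 10 listed, and arrays 2 to 4 had 0.02 to 0.26. The 6 measured epithelial genes of 12 listed had a median of -0.84 on array 1 and 0.53 on array 4. On array 2 the medians were -0.84 over 4 measured smooth muscle genes of 7 listed, -0.57 over 4 endothelial genes of 8, -0.51 over 7 myeloid genes of 10 and -0.28 over 9 T and NK lymphocyte genes of 12. Array 3 had 0.37, -0.21, 0.23 and 0.20 for the same lists, array 1 had 0.10, 0.36, 0.58 and 0.09, and array 4 had -0.16, -0.45, -0.56 and -0.08. Apart from the endothelial genes on array 3, these medians were above 0 with OXA in Cy5 and below 0 with OXA in Cy3. With OXA in Cy5 on every array, those of arrays 2 and 4 would change sign. The parts of dye and of cell composition in this split were not tested. Of 7 red blood cell markers 1 was on the array and 0 were measured. The part of cell composition in the values below was not tested.

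No respiratory chain or ATP synthase gene passed the test. In limma's moderated test with Benjamini-Hochberg adjustment over all 26927 probes, 0 of 27 members and 0 of all probes (0%) had an adjusted p under 0.05, and the smallest adjusted p among members was 0.763. At an unadjusted p under 0.05 there was 1 member, ATP5O (3.7%), against 500 probes (1.86%) and 80 of 2407 named genes (3.32%). The members' means ran from -0.22 (ATP5E) to 0.37 (ATP5O) with a median of 0.05, against 0.02 for all probes and -0.02 for named genes. With OXA in Cy5 on every array they ran from -0.20 (CYCS) to 0.38 (COX7A1), with ATP5E at -0.07 and ATP5O at -0.02. Means above 0 then turned below it for CYCS, ATP5O, NDUFA4 (-0.13), SDHD (-0.08), ATP5A1 (-0.03), ATP5G1 (-0.02) and COX5B (-0.0079). Means below 0 turned above it for COX7A1, COX6A1 (0.20), NDUFC1 (0.13), COX7C (0.04), COX6B (0.03) and ATP5L (0.03). By the sample labels the mean was above 0 for 20 of 27 members (74.1%), against 57% of all probes and 42.5% of named genes. Without array 4 it was above 0 for 9 of 27, with a median of -0.049. A fold of at least 1.2 was reached upward by 2 members, ATP5O and UQCRB, against 5.61% of named genes and 7.89% of all probes, and downward by 0 members, against 7.23% and 3.18%. UQCRB was under that fold without array 1 (0.19 on the log2 scale) and without array 2 (0.24).

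**Figure D1:**
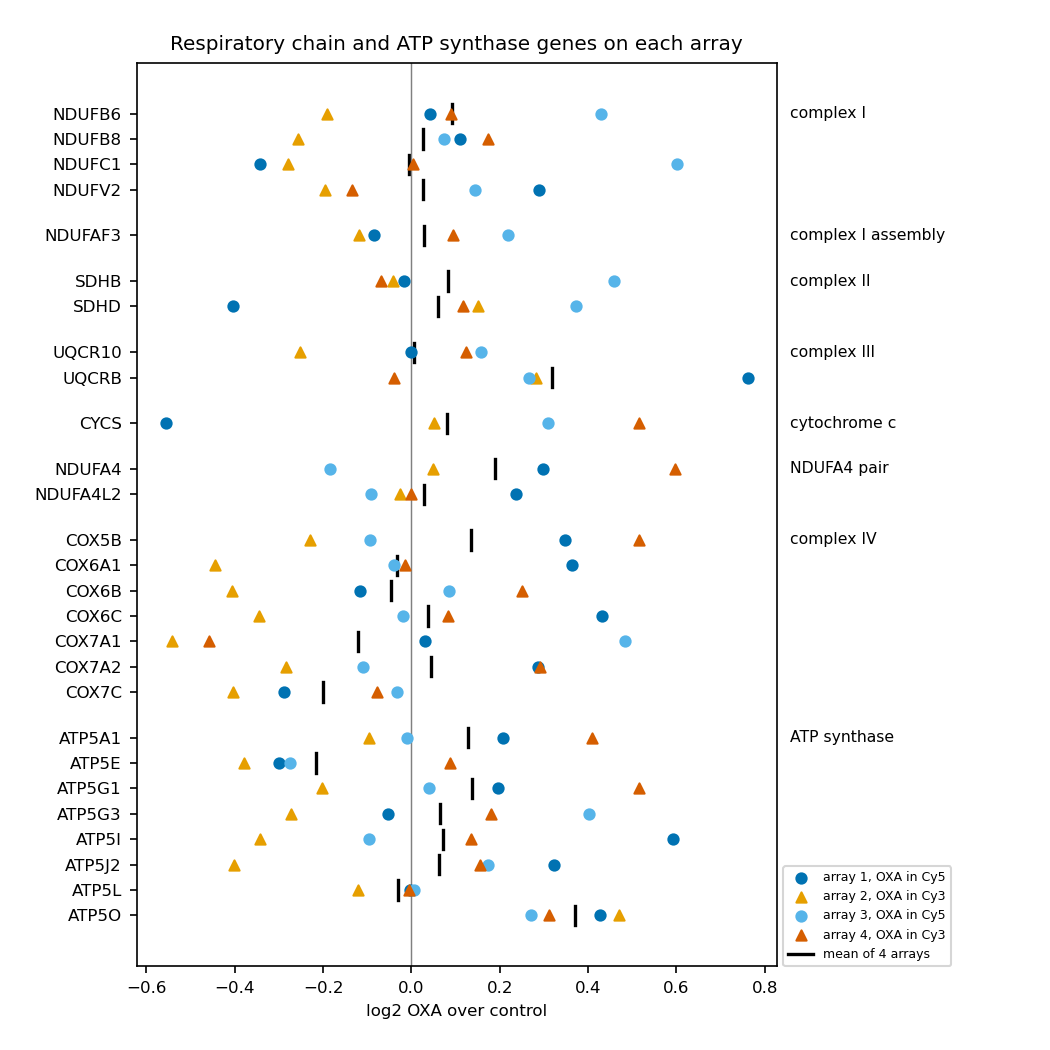
Log2 ratio of OXA over control (horizontal axis) for the 27 measured genes, grouped by complex. Each point is 1 array, circles where OXA was in Cy5 and triangles where it was in Cy3, and the black bar is the mean of 4 arrays. Only ATP5O lies above 0 and only COX7C below 0 on all 4 arrays.

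The arrays disagreed on the direction for most members. Of 27 genes, 1 (ATP5O) was above 0 on 4 of 4 arrays, against 2.83% of named genes and 7.64% of all probes, and 1 (COX7C) was below 0 on 4 of 4, against 5.86% and 4.26%. The other 25 genes had both signs, 12 of them on 2 arrays each way. With OXA in Cy5 on every array both ATP5O and COX7C had 2 arrays on each side, and NDUFV2 and COX7A1 were above 0 on 4 of 4. Array 2 stood apart from the rest: 22 of 27 members were below 0 there, and their median was -0.23, against 0.11, 0.09 and 0.12 on arrays 1, 3 and 4. With OXA in Cy5 on every array the medians were 0.11, 0.23, 0.09 and -0.12, with 22 of 27 members above 0 on array 2 and 8 of 27 on array 4, so array 2 would not stand apart. On array 2 the median of named genes was -0.08 and that of all probes -0.01. Among members above 0 there, ATP5O was at 0.47 and UQCRB at 0.28. Over the 27 members, the values of different arrays correlated weakly, with Pearson's r from -0.36 (arrays 3 and 4) to 0.31 (arrays 2 and 4). These correlations are across genes on shared arrays and only describe how little 1 array foretold another.

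**Figure D2:**
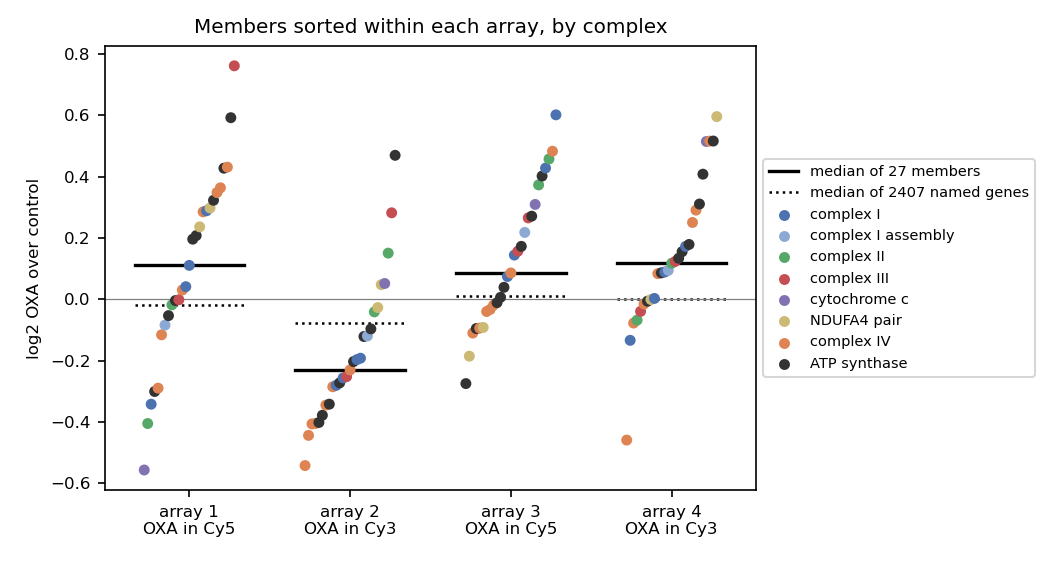
The 27 members sorted by value within each array, coloured by complex, with log2 OXA over control on the vertical axis. Solid lines mark the members' median and dotted lines the median of 2407 named genes; on array 2 the members' median lies at -0.23 and all 7 complex IV genes are below 0.

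The complexes differed little from each other next to the spread between arrays. In ATP synthase 6 of 8 genes had a mean above 0 (median 0.07) and in complex I 3 of 4 (median 0.03). Complex IV had 3 of 7 above 0 and a median of -0.03. With median centring its median was 0.32, where all probes had 0.14. The brightest 10% of all probes, which held each of its genes, then had 0.37. Both measured genes of complex II and both of complex III were above 0 (medians 0.07 and 0.16). Leaving out array 4 turned the medians of complex I and ATP synthase to -0.032 and -0.048, leaving out array 3 turned complex II to -0.086, and complex IV was 0.12 without array 2 and 0.067 without array 3. Complex IV had its lowest median on array 2 (-0.40) and its highest on array 1 (0.29), and so had ATP synthase (-0.24 and 0.20). With array 2 turned it would be the highest for both, at 0.40 and 0.24. Complex I was highest on array 3 (0.29, with 4 of 4 genes above 0) and lowest on array 2 (-0.23, with 0 of 4), which turned would be 0.23.

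Complex I takes electrons from NADH. NDUFV2, a core subunit of its NADH-oxidising arm, was at 0.29 and 0.14 on arrays 1 and 3 and at -0.20 and -0.13 on arrays 2 and 4. Its mean was 0.03 ± 0.23 (SD, n = 4), with both arrays that had OXA in Cy5 above 0 and both with OXA in Cy3 below. With OXA in Cy5 on every array it was 0.19, the same as its dye coefficient, with an unadjusted limma p of 0.0125. In that fit 2 of 27 members and 1047 of 26927 probes had an unadjusted limma p under 0.05, and 0 probes an adjusted one. By the sample labels all 5 NDUFV2 probes had means above 0, from 0.03 to 0.20. Of these, 2 had an unadjusted limma p under 0.05 (0.0242 and 0.0332). On arrays 1 and 3 all 5 probes were above 0, and on arrays 2 and 4 1 of 5 was. The other 3 subunits are accessory proteins of the membrane arm. NDUFB6 was at 0.04, -0.19, 0.43 and 0.09 on arrays 1 to 4, a mean of 0.09 ± 0.26 (SD, n = 4). NDUFB8 was at 0.11, -0.26, 0.07 and 0.17, with array 2 alone below 0. One of its 4 probes gave a mean of -0.12 where the brightest gave 0.03. NDUFC1 had the widest spread of the 4, from -0.34 on array 1 to 0.60 on array 3, around a mean of -0.0043. NDUFAF3, which helps to assemble complex I and is no subunit, was at -0.08, -0.12, 0.22 and 0.09.

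Complex II feeds electrons from succinate and is also an enzyme of the citric acid cycle. SDHB, its iron-sulfur subunit, was at 0.46 on array 3 and between -0.07 and -0.02 on the others. Its mean was 0.08 ± 0.25 (SD, n = 4), and without array 3 the fitted value was -0.04. Of its 7 probes 7 were above 0 on array 3, 0 on arrays 1 and 2, and 5 on array 4, where the brightest was at -0.07. Only 4 of the 7 probe means had the sign of the brightest, and the mean of the 7 was -0.00022. SDHD, a membrane anchor, was at -0.40 on array 1 and at 0.15, 0.37 and 0.12 on arrays 2 to 4. All 5 SDHD probes had means above 0, from 0.04 to 0.08. Within the slide of arrays 2 to 4 SDHD was 0.25, and without array 3 it was -0.14, both with an unadjusted p under 0.05 in limma, so its direction turned with the array left out.

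Complex III passes electrons from ubiquinol to cytochrome c. UQCRB, its ubiquinone-binding subunit, was at 0.76, 0.28, 0.27 and -0.04 on arrays 1 to 4, a mean of 0.32 ± 0.33 (SD, n = 4; SE 0.12) and a fold of 1.25. Array 4 was close to 0 and the other 3 arrays were above it (limma, adjusted p = 0.763, unadjusted p = 0.0568). Without array 1 the fitted value was 0.19. Its 7 probes all had means above 0, from 0.16 to 0.33, and 4 of them had an unadjusted p under 0.05. On arrays 1 and 3 all 7 probes were above 0, with medians of 0.60 and 0.59, on array 2 6 of 7 (median 0.08), and on array 4 none of the 7 was, with a median of -0.21. The brightest probe therefore gave a higher value on array 4 than any of the other probes did. Its means were 0.51 with OXA in Cy5 and 0.12 with OXA in Cy3. Those of the other probes were 0.45 to 0.73 with OXA in Cy5 and -0.16 to -0.01 with OXA in Cy3. With OXA in Cy5 on every array the brightest probe had a mean of 0.20. UQCR10, a small subunit, was at -0.0011, -0.25, 0.16 and 0.12, with a mean of 0.01 ± 0.19 (SD, n = 4).

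Cytochrome c, the soluble carrier between complexes III and IV, is encoded by CYCS and is also released from mitochondria in apoptosis. It was at -0.56, 0.05, 0.31 and 0.51 on arrays 1 to 4, a mean of 0.08 ± 0.46 (SD, n = 4). Array 1 was far below 0 and array 4 far above. Of the 12 CYCS probes 0 were above 0 on array 1 and 12 on array 4. Over these probes the medians were -0.37, 0.31, 0.46 and 0.22 on arrays 1 to 4, so array 3 rather than array 4 was the highest. Their means ran from -0.21 to 0.25, with 10 of 12 above 0.

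NDUFA4 was first assigned to complex I and is now counted with complex IV; NDUFA4L2 is its paralogue, known as a hypoxia-induced gene. NDUFA4 was at 0.30, 0.05, -0.19 and 0.60 on arrays 1 to 4, a mean of 0.19 ± 0.34 (SD, n = 4; SE 0.14). It was above control on 3 of 4 arrays, and its 6 probes had means from 0.07 to 0.19. Of these probes 5 were above 0 on array 1 and 5 on array 4, 3 on array 3, and only 1, the brightest, on array 2. With OXA in Cy5 on every array the brightest probe had a mean of -0.13. NDUFA4L2 was dim, well above background in 5 of 8 readings, and stood at 0.24 on array 1 and between -0.09 and -0.00045 on the others. With Agilent's own log ratio it was -0.46, against 0.03 here.

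Complex IV, cytochrome c oxidase, hands the electrons to oxygen, and all 7 measured genes encode its nuclear subunits. COX7C was below control on all 4 arrays, at -0.29, -0.40, -0.03 and -0.08, a mean of -0.20 ± 0.18 (SD, n = 4; SE 0.09) and a fold of 0.870. Arrays 3 and 4 were close to 0 (limma, adjusted p = 0.763, unadjusted p = 0.0947). Its 3 probes had means from -0.21 to -0.10, but 2 of 3 were above 0 on array 3. With median centring COX7C was 0.13, where the brightest 10% of all probes had a median of 0.37, and with OXA in Cy5 on every array it was 0.04. COX5B was at 0.35, -0.23, -0.09 and 0.52, a mean of 0.14 ± 0.35 (SD, n = 4), and its 3 probes all had means above 0 (0.14 to 0.19). COX7A1, known as the heart and muscle isoform, split by dye: 0.03 and 0.48 where OXA was in Cy5, and -0.54 and -0.46 where it was in Cy3. Its dye coefficient, the Cy5 over Cy3 ratio averaged over both orientations, was 0.38 and its OXA value -0.12. COX7A2, the isoform of most other tissues, was at 0.29, -0.28, -0.11 and 0.29, and 2 of its 5 probes had means past -0.10 where the brightest gave 0.05. COX6C was at 0.43, -0.34, -0.02 and 0.08, and its other 2 probes had means below 0, down to -0.16. COX6A1 and COX6B had means of -0.03 and -0.05, and all 5 COX6A1 probes were below 0 (-0.22 to -0.03). On array 2 each of the 7 genes was below 0, from -0.54 to -0.23.

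ATP synthase has a catalytic head, a rotating stalk with a ring of c subunits in the membrane, and a peripheral stalk that holds the head still. ATP5O, the protein that joins the head to the peripheral stalk, was at 0.43, 0.47, 0.27 and 0.31 on arrays 1 to 4. All 4 arrays were above control, and its mean was 0.37 ± 0.09 (SD, n = 4; SE 0.07), a fold of 1.29. It had the lowest p of the members but did not pass over all probes (limma, adjusted p = 0.763, unadjusted p = 0.00547). The value was much the same with OXA in Cy5 (0.35) and in Cy3 (0.39). A fold of at least 1.2 with an unadjusted p under 0.05, was met upward by ATP5O alone among members, against 0.582% of named genes and 0.624% of all probes, and downward by 0 members, against 1.87% and 0.672%. Of its 10 probes, 9 had means above 0, from 0.18 to 0.39, and 1 gave -0.02. The probes were above 0 for 8 of 10 on array 1, 10 of 10 on arrays 2 and 3 and 8 of 10 on array 4, and 6 of them on all 4 arrays. The brightest probe lay near the top of this range, and the mean of the 10 was 0.26. Leaving out each array in turn gave 0.33 to 0.41, and without array 2 its unadjusted limma p was 0.0676. That p was 0.162 with Agilent's log ratio or the authors' deposited table as the source of ratios, and 0.0515 with an intensity trend and robust moderation together. With OXA in Cy5 on every array ATP5O was -0.02.

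ATP5A1, the alpha subunit of the catalytic head, was at 0.21, -0.10, -0.01 and 0.41, a mean of 0.13 ± 0.23 (SD, n = 4). Of its 14 probes 13 had means above 0, up to 0.36, and 1 gave -0.10. On array 4 all 14 were above 0 (median 0.28) and on array 1 7 of 14 (median 0.02). On arrays 2 and 3, where the brightest probe was below 0, 11 of 14 were above it (medians 0.13 and 0.39). ATP5E, the epsilon subunit of the rotating stalk, had the lowest mean of the members, -0.22 ± 0.21 (SD, n = 4; SE 0.10). It was at -0.30, -0.38 and -0.27 on arrays 1 to 3 and at 0.09 on array 4. Its other probe gave 0.15, so its 2 probes disagreed in sign. With median centring the brightest probe was at 0.13, where the brightest 10% of all probes had a median of 0.37. ATP5G1 and ATP5G3, which encode the same c subunit of the ring, had means of 0.14 and 0.06. ATP5G1 was at 0.20, -0.20, 0.04 and 0.52, with array 2 alone below 0. The membrane subunits ATP5I, ATP5J2 and ATP5L had means of 0.07, 0.06 and -0.03, and all 3 were below 0 on array 2. ATP5L was dim and ran only from -0.12 to 0.01.

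**Figure D3:**
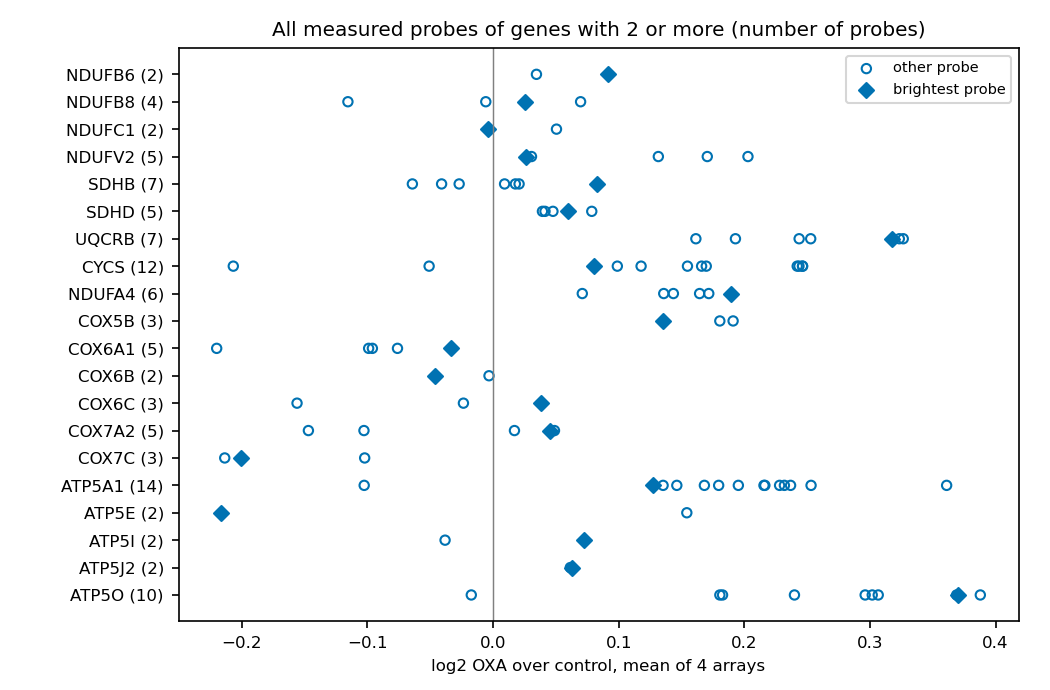
Mean log2 OXA over control of every measured probe for the 20 genes with 2 or more probes, filled diamonds for the brightest probe and open circles for the others. All probes of UQCRB (0.16 to 0.33), NDUFA4 and COX5B lie above 0 and all of COX7C and COX6A1 below, while those of COX7A2, NDUFB8 and ATP5E fall on both sides.

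Several probes of a gene measure the same RNA on the same arrays and add no replicates. Of the 108 measured member probes 80 (74.1%) had means above 0, against 57% of all probes. An unadjusted limma p under 0.05 was found for 12 (11.1%), against 1.86% of all probes and 3.32% of named genes. These 12 all had means above 0: 4 each for ATP5O and UQCRB, 2 for NDUFV2 and 1 each for CYCS and ATP5A1. All probes include many dimmer ones. Refitted with only probes well above background in all readings, 509 of 13594 had such a p, and the 108 were not recounted there. Of the 20 genes with at least 2 probes, 10 had all probes on the side of the brightest one.

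How far the members stood above 0 depended on the scaling of the arrays. Loess, used here, takes out any trend of the ratio with brightness on each array. With only the median of each array set to 0, the members' median was 0.39 and 26 of 27 were above 0. Members were bright: 22 of 27 lay in the brightest 10% of all probes and 3 in the next 10%. With median centring the median of all probes rose with brightness, from -0.04 in the dimmest 10% to 0.37 in the brightest, against 0.14 over all probes. With loess the brightest 10% was at 0.03. In both scalings the members' median was 0.02 above that of the brightest 10%.

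**Figure D4:**
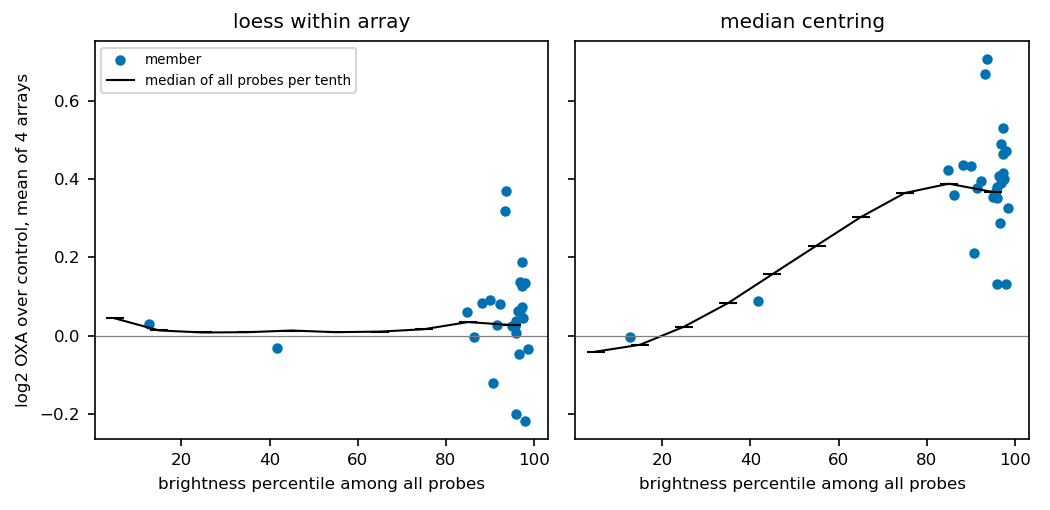
Mean log2 OXA over control of the 27 members (points) against their brightness percentile among 26927 probes, with loess (left) and with median centring (right). Black dashes are medians of all probes in 10 equal classes of brightness; the members lie around them in both panels, at about 0.03 on the left and 0.37 on the right in the brightest class.

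The 27 genes were read beside 6 lists of other mitochondrial genes. In none of these lists did a gene have an adjusted p under 0.05 in limma. Of their 29 measured genes 2 (6.9%), IDH3B and HSPD1, had an unadjusted one under 0.05, against 3.32% of named genes and 1.86% of all probes. Of the 29 genes 18 (62.1%) had means above 0, against 42.5% of named genes and 57% of all probes. The citric acid cycle and pyruvate entry list had 11 of 21 genes measured, 10 of them above 0, with a median of 0.07. IDH3B, a subunit of isocitrate dehydrogenase, was above control on 4 of 4 arrays, at 0.32, 0.05, 0.33 and 0.13 (mean 0.21; limma, adjusted p = 0.763). With OXA in Cy5 on every array its mean was 0.12. DLD, the shared dihydrolipoamide dehydrogenase, was at 1.09, 1.06 and 0.55 on arrays 1 to 3 and -0.31 on array 4. PDHB, a subunit of pyruvate dehydrogenase, had a mean of 0.13. Among regulators of mitochondrial genes 4 of 18 were measured, 2 above 0, with PPARGC1A at 0.16, TFAM at 0.06 and TFB1M at -0.08. Carriers and porins had 3 of 7 measured genes above 0. UCP2, a proton carrier, was at -0.26, VDAC2, a porin, at 0.21 and SLC25A6, which exchanges ADP for ATP, at -0.13. Of the list of electron entry and quinone genes 2 of 17 were measured, ETFA at 0.32 and ETFB at -0.02, the paired subunits of the electron transfer flavoprotein. Both measured assembly genes outside the rule were below 0, PET100 at -0.06 and TACO1 at -0.03. Of 3 measured mitochondrial chaperones, HSPD1 was at 0.69 and HSPE1, its partner, at 0.25, each above 0 on 4 of 4 arrays, and TRAP1 was at -0.05. HSPD1 was at 0.93, 1.17, 0.66 and 0.01 on arrays 1 to 4, so array 4 was close to 0. With OXA in Cy5 on every array HSPD1 had a mean of 0.10 and HSPE1 one of 0.0029.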

How the data were processed

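Total RNA of cultured endometrium was measured on 4 Agilent 2-colour arrays, 1 OXA-treated and 1 control RNA on each. Per the file headers, Agilent Feature Extraction (version 10.7.3.1) made the deposited scanner files, which give a median intensity for each spot and its background in both dyes. Processed intensity values and a log10 value of Cy5 over Cy3 were made from these by the same software, per the file headers. The series' deposited value table ran as a log2 ratio of OXA over control. Against the scanner's Cy5 over Cy3 ratio over 43420 probes, its slopes were 1.06, -1.00, 1.04 and -1.03 on arrays 1 to 4. Pearson's r was 0.89, -0.97, 0.69 and -0.80, so the match was looser on arrays 3 and 4. The members' fitted values were nearly the same from this table as from the scanner's ratio (ATP5O 0.362 from both). The table's centring over all probes stays unknown (column medians -0.17, 0.06, -0.06 and 0.09).

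From the median intensities, background was corrected with normexp (offset 50), arrays were normalized by loess, and ratios were fitted in limma 3.58.1 (R 4.3.3) with an OXA and a dye coefficient, with 2 residual degrees of freedom. Control spots were left out. Of 43603 probes, 26927 were well above background in at least 4 of 8 readings and complete on all arrays, and were tested; outlier spots cost 135. Normexp pulls ratios of dim probes toward 0. The number of arrays limits the precision, and no spot was saturated. RefSeq accessions were named through the gene table of assembly Sscrofa11.1, which matched 6700 of 7125 probes. Its symbols, some of them old, were kept. The headers name no genome build, so no coordinates are given.

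The members and lists were chosen with earlier results of these data known, so lists are described by counts and medians without a test. Named with values for each array were the 10 members of lowest unadjusted p, the highest and lowest of each complex, members of 1 sign on 4 of 4 arrays with a mean past 0.1, CYCS, and members with a probe of opposite sign past 0.1. NDUFV2 was added after its values were seen. Up to 3 genes of each other mitochondrial list, of lowest unadjusted p, are named, most with means only. Background correction, normalization, dye term, probe filter, probe choice, moderation, single arrays, slide and dye direction were varied.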

Additional observations from a re-analysis of the deposited data

Results flagged for a closer look

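Over 28 sets of 4 array values (27 members and their median), 3 had an array far from the others by Dixon's test of the gap to the nearest value. Chance gives such a gap in about 1 of 20 sets. On array 2 the members had a median of -0.23, against 0.09 to 0.12 for arrays 1, 3 and 4. With OXA in Cy5 on every array the medians were 0.11, 0.23, 0.09 and -0.12, and none was far from the others by that test. Array 3 gave 0.46 for SDHB, and the other arrays gave -0.07 to -0.02. Array 2 gave -0.12 for ATP5L, a dim gene, and the other arrays gave -0.01 to 0.01.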

How the results depend on the processing

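Of 15 alternatives 4 leave the members' values as they are by construction and 2 nearly repeat another. In the other 9, 175 of 236 member values that moved kept the sign they had above, with UQCRB the only member to keep it in each. Without 1 array the probes past an adjusted p of 0.05 numbered 0 to 6 (6 without array 4), and those past an unadjusted p of 0.05 with a fold of 1.2 numbered 285 to 3115, against 349. They were 1406 with no background correction, 1829 with Agilent's log ratio, 1824 with the authors' table, 4297 with median centring and 679 with OXA in Cy5 on all arrays. Of 27 members, 0 passed that looser threshold with Agilent's log ratio, the authors' table, or an intensity trend and robust moderation together. Of all probes 6.79%, 6.77% and 0.973% did. With median centring 5 members passed it, where 16.0% of all probes did. With an array left out 0 (without array 2) to 2 (without array 3) members passed it, where 1.10% and 11.6% of all probes did. The members' median was 0.39 with median centring and ran from -0.049 (without array 4) to 0.13 (without array 2), with 9 to 23 members above 0. With median centring complexes I to IV and ATP synthase had medians of 0.36, 0.43, 0.51, 0.32 and 0.41. All probes then had a median of 0.14 and the brightest 10% one of 0.37. Leaving out arrays gave -0.032 to 0.10 for complex I, -0.086 to 0.23 for complex II, -0.14 to 0.12 for complex IV, -0.048 to 0.20 for ATP synthase and -0.14 to 0.25 for SDHD. The NDUFA4 pair's median was -0.14 with either source of deposited ratios, and -0.045 with OXA in Cy5 on all arrays, where complex IV was 0.042, COX7A1 0.38 and ATP5O -0.020. The cause of these changes was not tested. A fit of 3 arrays has 1 residual degree of freedom, and the array alone in its dye orientation weighs as much as the other pair. Within the slide of arrays 2 to 4 the fit is that without array 1. No paired analysis was possible because each array already pairs 1 OXA with 1 control RNA and the arrays form 1 group. NDUFA4L2 and ATP5L, well above background in 5 and 7 of 8 readings, are limited by signal.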
